A study of Mus musculus with 12 samples.

Results

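The 10 genes described here encode the signalling chains of the T-cell receptor, its coreceptors and its first kinases and adaptor. They are Cd3d, Cd3e, Cd3g, Cd247, Cd4, Cd8a, Cd8b1, Lck, Zap70 and Lat, picked by symbol, and each has 1 row among the 45777 genes of the deposited table. All 10 passed the filter on low counts, a count above 0 in at least 3 libraries, which 23585 genes passed. RNA was sequenced from splenic CD4+ T cells of wild type mice, named in the labels as Balb/c aged 7 weeks, that had been kept for 3 days with an anti-CD3 antibody at 0.5 ug/ml. Every group received anti-CD3, so no unstimulated cells were measured. One group got nothing else. The others got heat-inactivated *L. acidophilus* (a gut bacterium), FK506 (tacrolimus, which inhibits the phosphatase calcineurin), or the 2 together, called the combination, which makes 4 groups. Each group had 3 libraries, and nothing in the labels says that they came from separate animals, so the p-values measure only the spread between these libraries. The study's methods describe isolation with magnetic beads against CD4 and name B6 mice, bought at an older age than the labels give. They give no doses of *L. acidophilus* or FK506 for the sequenced cells. Heating of the bacteria is described there for the splenocyte and blood cell cultures, and not separately for the sequenced cells.

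The T-cell receptor has no enzyme of its own. Its antigen-binding chains sit in the membrane with the CD3 gamma, delta and epsilon chains and a pair of zeta chains (the product of Cd247), whose tails carry tyrosine motifs. The coreceptor CD4 binds MHC class II, the coreceptor CD8 (a pair of alpha and beta chains, or of alpha chains alone) binds MHC class I, and both carry the kinase Lck to the receptor. Lck phosphorylates the CD3 and zeta tails, the kinase Zap70 docks on them and phosphorylates the membrane adaptor Lat, and Lat assembles the complex that opens the calcium and Ras arms. FK506 acts below this step, where calcium would activate calcineurin.

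The total count per library was 45416397 to 64658165, and the 10 genes together took 0.247% to 0.398% of it. Levels are given as FPKM, fragments scaled by transcript length and library depth, as deposited and without further scaling. Differences are log2 fold changes on counts with TMM scaling factors (edgeR's quasi-likelihood test, adjusted p after Benjamini-Hochberg over all 23585 genes), and a gene passed at an adjusted p under 0.05. The anti-CD3 library of replicate 2 had the largest FPKM total (486334, the others 380445 to 433363) and the highest level of its group for 7 of the 10 genes. Combination replicate 1 was the highest of its group for 9 of the 10, and *L. acidophilus* replicate 1 for 7. In these bulk samples, fewer cells of a type and less RNA per cell cannot be told apart.

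Cd3g, Cd3d and Cd3e lie side by side on chromosome 9 with no annotated gene between them. In the RefSeq annotation of GRCm38.p6, Cd3g (gene ID 12502) spans chr9:44969572-44980431 on the minus strand, and Cd3d (12500) spans chr9:44981769-44987052 on the plus strand, 1337 bases away. Cd3e (12501) spans chr9:44998735-45009663 on the minus strand, 11682 bases beyond Cd3d. Cd8b1 (12526, chr6:71322788-71337492) and Cd8a (12525, chr6:71373427-71379171) are neighbours too, 35934 bases apart. Cd4 (12504) lies at chr6:124864693-124888247, Lck (16818) at chr4:129548344-129573641, and Lat (16797) at chr7:126363827-126369705. Zap70 (22637) lies at chr1:36761798-36782821 and Cd247 (12503) at chr1:165779952-165871153. The span of Cd247 overlaps that of Pou2f1, and the sources used here do not say whether reads were counted by strand, so shared reads could count for either gene.

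The sequences upstream of the 3 CD3 genes are shown because these neighbours differed in the data below, and that of Lat because it was the member that fell with the combination. Each is the 250 bases before an annotated transcript start, which for Cd3d, Cd3e and Lat lies inside the gene's full span, so that these 3 windows overlap its first bases. The windows are written 5′ to 3′ along the gene's own strand, from RefSeq with build GRCm38.p6. They lie at chr9:44980432-44980681 (minus) for Cd3g, chr9:44981536-44981785 (plus) for Cd3d, chr9:45009612-45009861 (minus) for Cd3e and chr7:126369569-126369818 (minus) for Lat. Capitals mark GGAA, the core letters bound by ETS factors, or TTCC, the same core on the other strand.
Cd3g: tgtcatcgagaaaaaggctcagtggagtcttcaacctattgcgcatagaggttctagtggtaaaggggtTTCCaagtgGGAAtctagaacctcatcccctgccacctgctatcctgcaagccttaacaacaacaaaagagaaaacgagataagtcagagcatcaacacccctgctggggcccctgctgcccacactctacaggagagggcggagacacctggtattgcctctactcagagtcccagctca
Cd3d: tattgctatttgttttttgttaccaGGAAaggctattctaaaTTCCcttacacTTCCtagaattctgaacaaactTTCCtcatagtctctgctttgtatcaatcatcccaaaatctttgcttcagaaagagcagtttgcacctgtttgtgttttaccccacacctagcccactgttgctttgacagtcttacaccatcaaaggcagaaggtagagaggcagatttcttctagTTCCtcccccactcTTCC
Cd3e: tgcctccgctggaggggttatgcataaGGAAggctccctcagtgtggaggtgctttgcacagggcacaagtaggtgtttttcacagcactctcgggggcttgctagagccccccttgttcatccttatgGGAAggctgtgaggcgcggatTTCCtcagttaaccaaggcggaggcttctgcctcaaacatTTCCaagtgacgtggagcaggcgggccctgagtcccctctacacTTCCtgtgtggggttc
Lat: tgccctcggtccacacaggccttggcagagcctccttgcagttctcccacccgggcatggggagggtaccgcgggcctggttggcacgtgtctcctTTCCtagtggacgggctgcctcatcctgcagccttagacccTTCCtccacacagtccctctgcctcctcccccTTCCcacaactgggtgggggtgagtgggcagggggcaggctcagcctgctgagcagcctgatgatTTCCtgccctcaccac
The Cd3g window held 2 such cores, Cd3d 6, Cd3e 5 and Lat 4, and their GC content was 51.6%, 41.2%, 57.2% and 65.2%. GGAA occurred in 93.4% of the 32851 windows of this length in the table and in 10 of the 11 windows of the 8 members that had an entry (Cd4 and Cd8b1 had none), so it does not set these genes apart. A longer form, CAGGAAG, which contains GGAA and was read on both strands, occurred in 10.8% of all windows and in 5 of the 11, belonging to Zap70, Cd247, Lck and Cd3e. The letters TATAAA, again on both strands, occurred in 12.4% of all windows and in 0 of the 11. These are matches of letters in a window, and no binding was measured.

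The labelled cell type was checked against the coreceptors. Cd4 stood at 131 to 256 FPKM over the 12 libraries, Cd8b1 at 2.10 to 6.85 and Cd8a at 0.0993 to 2.18. Within a library Cd8a was 0.000706 to 0.0142 of Cd4, so Cd4 exceeded Cd8a in every library. B cell transcripts were nonetheless present. The summed level of 12 B cell markers (among them Cd79a, Cd79b, Ms4a1, Pax5 and Ighm) was 85.2 to 182 FPKM with anti-CD3 alone or with *L. acidophilus*, 849 to 1751 with FK506 and 766 to 908 with the combination.

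With anti-CD3 alone, the mean levels fell in the order Cd3g (289 FPKM), Lat (289), Lck (271), Cd3e (151), Cd3d (150), Cd4 (143), Zap70 (110), Cd247 (107), Cd8b1 (3.86) and Cd8a (0.215). Neighbours in that order overlapped in range, except Lck and Cd3e, Cd4 and Zap70, Cd247 and Cd8b1, and Cd8b1 and Cd8a. With the combination the order was Cd3g (365), Cd3e (295), Cd4 (245), Lck (241), Lat (202), Cd3d (187), Cd247 (149), Zap70 (105), Cd8b1 (4.25) and Cd8a (0.321). Cd3e and Cd4 stood ahead of Lck and Lat there. Neighbours from Cd4 down to Cd247 overlapped in range, and the others did not.

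**Figure D1:**
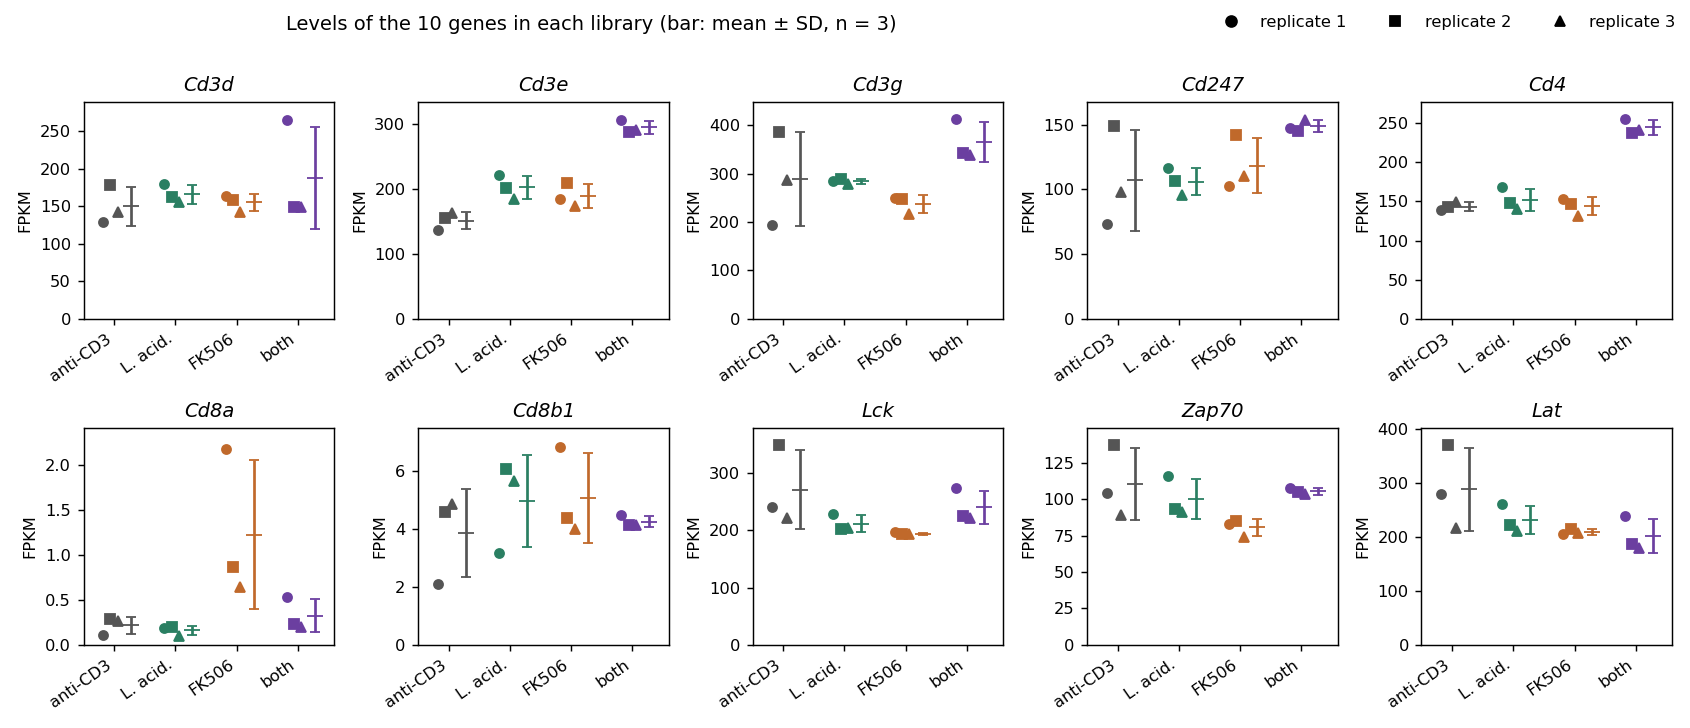
Level of each of the 10 genes in FPKM in the 12 libraries, by group (anti-CD3 alone, *L. acidophilus*, FK506, both), with points for libraries (circle, square and triangle for replicates 1 to 3) and bars for the mean ± SD of 3. The combination libraries of Cd3e (287 to 306) and of Cd4 (237 to 256) sit above those of every other group, and Cd8a is high in FK506 replicate 1 (2.18).

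The combination was compared with anti-CD3 alone to ask how the 2 agents together shifted the receptor apparatus. Cd3e and Cd4 rose, Lat fell, and the other 7 genes did not pass. This is 3 of 10, against 43.3% of all genes tested (21.5% higher and 21.8% lower). None of the 3 changed by 2-fold, which 24.6% of all genes did. The median log2 difference of the 10 was 0.14, beside 0.02 over all genes.

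Cd3e, the chain shared by both CD3 dimers of the receptor, was at 136, 155 and 162 FPKM with anti-CD3 alone and at 306, 287 and 290 with the combination. The *L. acidophilus* libraries held 220, 202 and 184 FPKM, and the FK506 libraries 185, 208 and 173. The combination libraries were the highest, the anti-CD3 libraries the lowest, and the 2 single treatments lay between and overlapped each other. The log2 difference between the combination and anti-CD3 was 0.76 ± 0.10 (SE, adjusted p = 0.000129), higher than FK506 by 0.55 (adjusted p = 0.00378) and than *L. acidophilus* by 0.42 (adjusted p = 0.00793). On the FPKM scale the mean rose 1.95-fold, and on TMM-scaled counts 1.70-fold, with TMM factors of 1.05 to 1.10 in the combination libraries and 0.893 to 0.974 in the anti-CD3 libraries.

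Cd4 was at 139, 142 and 149 FPKM with anti-CD3 alone, at 168, 149 and 141 with *L. acidophilus*, at 154, 147 and 131 with FK506, and at 256, 237 and 242 with the combination. The first 3 groups overlapped and the combination stood clear of them. The log2 difference was 0.56 ± 0.10 against anti-CD3 (SE, adjusted p = 0.000694), 0.68 against FK506 (adjusted p = 0.00102) and 0.56 against *L. acidophilus* (adjusted p = 0.00116). Neither agent alone moved Cd4 past the test, with a log2 difference of -0.12 for FK506 (adjusted p = 0.446).

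Markers of other cells moved with these 2 rises. The summed level of 10 myeloid markers was 46.3 to 77.5 FPKM with the combination and 5.49 to 19.7 in the other 9 libraries, and 6 of the 8 tested passed as higher than with anti-CD3 and 0 as lower. S100a8 was listed at 0 in all 12 libraries, and Lyz2, a lysozyme of macrophages, at 14.5 to 30.8 FPKM with the combination. Of the B cell markers, 9 of 12 were higher and 0 lower, and their sum (766 to 908 FPKM) overlapped that with FK506 alone (849 to 1751), where Cd3e and Cd4 did not pass. The part of these cells in the rise of Cd3e and Cd4 was not tested.

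The 3 partners of Cd3e in the complex did not pass in any comparison. Cd3g was at 193, 386 and 287 FPKM with anti-CD3 alone, the widest spread of the 4 groups, and at 412, 343 and 339 with the combination. Its log2 difference was 0.13 ± 0.20 (SE, adjusted p = 0.630). Without anti-CD3 replicate 2 it was 0.43 (adjusted p = 0.0375), and without anti-CD3 replicate 1 it was -0.08. Of 23 alternative fits 2 called Cd3g higher, and the estimates reached 0.75. Against FK506, where Cd3g stood at 249, 248 and 216 FPKM, the log2 difference was 0.53 (adjusted p = 0.0826), and it passed without anti-CD3 replicate 1 (adjusted p = 0.0222) or replicate 2 (adjusted p = 0.0134), which are not in the contrast but set the shared estimate of the spread. FK506 against anti-CD3 gave -0.40 for Cd3g (adjusted p = 0.184), and -0.61 (adjusted p = 0.0224) without anti-CD3 replicate 1.

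Cd3d was at 129, 178 and 142 FPKM with anti-CD3 alone and at 265, 148 and 148 with the combination, so 1 library carried the higher mean. Its log2 difference of 0.15 ± 0.22 (adjusted p = 0.633) became -0.24 without combination replicate 1. Of 23 alternative fits 1 called Cd3d higher, and the estimates reached 0.56. Cd247, which encodes the zeta chain, was at 73.4, 149 and 98.2 FPKM with anti-CD3 alone and at 148, 145 and 154 with the combination. The log2 difference was 0.40 ± 0.19 (adjusted p = 0.106), and 0.73 (adjusted p = 0.000248) without anti-CD3 replicate 2. Without that library Cd247 also passed for FK506 against anti-CD3 (0.44, adjusted p = 0.0128), and for the combination against FK506 (0.28, adjusted p = 0.0343) and against *L. acidophilus* (0.36, adjusted p = 0.00693).

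The chains were also compared within a library. A ratio of 2 genes of the same library cancels that library's scale. Cd3d to Cd3e was 0.877 to 1.15 with anti-CD3 alone and 0.511 to 0.866 with the combination, and Cd3g to Cd3e was 1.42 to 2.50 and 1.17 to 1.35. Cd247 to Cd3e was 0.539 to 0.967 and 0.482 to 0.531. None of the 3 pairs of ranges overlapped, and all 3 ratios were lower with the combination. In each ratio 1 single treatment also lay below anti-CD3 alone. These were Cd3d to Cd3e at 0.801 to 0.846 and Cd247 to Cd3e at 0.519 to 0.528 for *L. acidophilus*, and Cd3g to Cd3e at 1.19 to 1.35 for FK506. The other single treatment overlapped anti-CD3 alone. It was FK506 for Cd3d to Cd3e (0.761 to 0.885) and Cd247 to Cd3e (0.555 to 0.683), and *L. acidophilus* for Cd3g to Cd3e (1.29 to 1.51). Only the combination was below anti-CD3 alone in all 3. The smallest p that an exact permutation of 3 and 3 libraries allows (two-sided) is 0.1, so these ratios are a description.

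Lat, the adaptor that Zap70 phosphorylates, was at 279, 370 and 217 FPKM with anti-CD3 alone, at 261, 223 and 212 with *L. acidophilus*, at 206, 215 and 208 with FK506, and at 239, 187 and 180 with the combination. The mean was lower in every treated group and the ranges of the combination and anti-CD3 overlapped. On TMM-scaled counts Lat fell by 0.73 ± 0.20 with the combination (SE, log2, adjusted p = 0.0103), and the adjusted p stayed under 0.05 without any single library, at most 0.0458. It was lost in limma on FPKM with a pseudocount of 1 (-0.49, adjusted p = 0.0510), kept with 0.1 (-0.49, adjusted p = 0.0479), and lost after quantile normalization (-0.21, adjusted p = 0.198). That last setting gave 5 members higher and 0 lower in place of 2 higher and 1 lower. Against FK506 the Lat difference was small (adjusted p = 0.680), and against *L. acidophilus* it was -0.32 (adjusted p = 0.235).

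**Figure D2:**
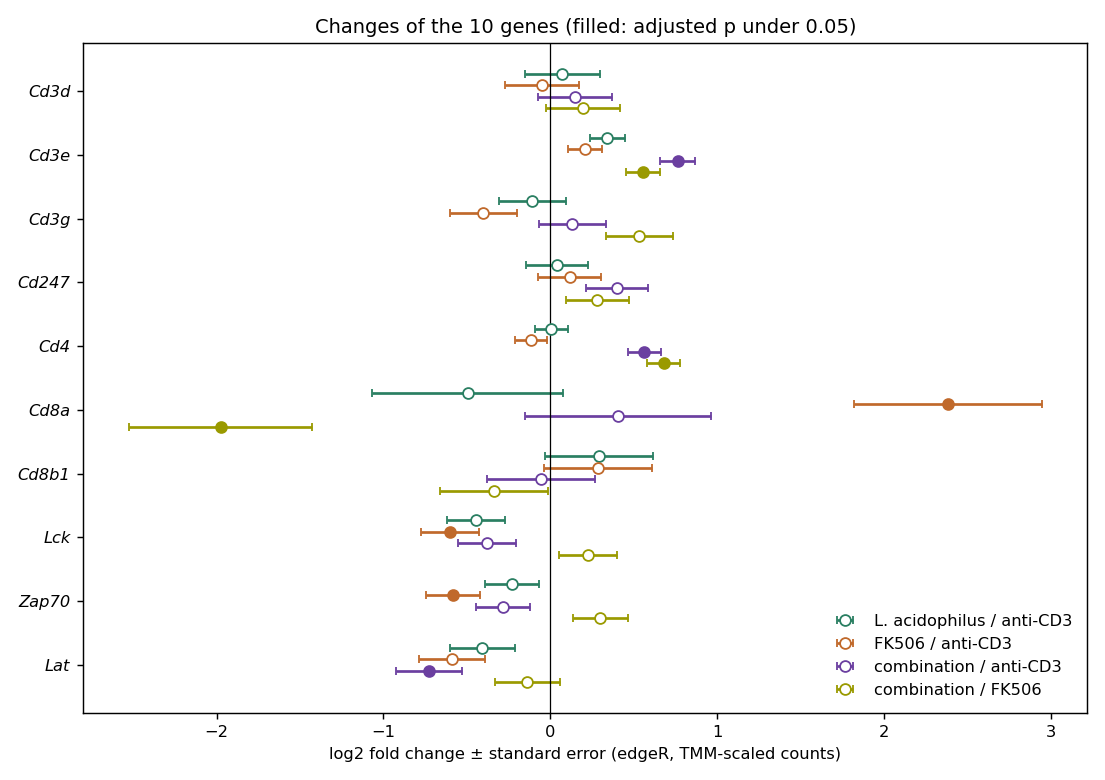
Log2 fold change ± standard error of each gene (edgeR, TMM-scaled counts) for *L. acidophilus*, FK506 and the combination against anti-CD3 alone and for the combination against FK506, with filled points at an adjusted p under 0.05. Cd3e and Cd4 are filled on the right in both combination comparisons, Lat is filled on the left (-0.73), and Cd8a has the largest difference with FK506 (2.38) and the widest error.

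FK506 alone was compared with anti-CD3 to ask what calcineurin inhibition did to the same genes. Here 3 of 10 passed, Cd8a higher and Lck and Zap70 lower, against 19.0% of all genes tested (10.2% higher and 8.81% lower). Only Cd8a changed by at least 2-fold, which 10.6% of all genes did. The median log2 difference of the 10 was -0.08, beside -0.0017 over all genes.

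Lck, the kinase that starts the cascade, was at 242, 350 and 222 FPKM with anti-CD3 alone and at 196, 193 and 193 with FK506, and the groups did not overlap. The log2 difference was -0.60 ± 0.17 (SE, adjusted p = 0.0309). Zap70, which docks on the phosphorylated tails, was at 104, 137 and 89.0 FPKM with anti-CD3 alone and at 82.9, 85.2 and 73.8 with FK506, again without overlap. Its log2 difference was -0.58 ± 0.16 (adjusted p = 0.0272). Lat was at -0.59 and did not pass (adjusted p = 0.0553). It passed without anti-CD3 replicate 3 (-0.79, adjusted p = 0.00868) or combination replicate 1 (-0.59, adjusted p = 0.0431), and was at -0.35 (adjusted p = 0.210) without anti-CD3 replicate 2.

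The calls of Lck and Zap70 were close to the threshold. Each was lost without anti-CD3 replicate 2, with a log2 difference of -0.35 for Lck (adjusted p = 0.0870) and -0.37 for Zap70 (adjusted p = 0.0833). Each was also lost without any single FK506 library, with adjusted p of 0.0775 to 0.0979 for Lck and 0.0690 to 0.0967 for Zap70. In the same FK506 libraries 11 of 12 B cell markers were higher than with anti-CD3 (sum 849 to 1751 FPKM, as against 106 to 182), and of 8 tested myeloid markers 5 were higher and 1 lower. Their part in the lower levels of Lck and Zap70 was not tested.

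With the combination, Lck was at 274, 226 and 222 FPKM and Zap70 at 108, 105 and 103. Both ranges lay above those with FK506 alone and overlapped those of anti-CD3. The log2 difference from FK506 was 0.22 for Lck (adjusted p = 0.407) and 0.30 for Zap70 (adjusted p = 0.226), so neither passed. Of 23 alternative fits 1 called Lck higher and 2 called Zap70 higher, and the estimates reached 0.35 and 0.57. Against anti-CD3 they were at -0.38 (adjusted p = 0.0972) and -0.28 (adjusted p = 0.181). Without anti-CD3 replicate 3 both passed as lower, at -0.53 (adjusted p = 0.0218) and -0.45 (adjusted p = 0.0265), and Lck also without combination replicate 1, at -0.51 (adjusted p = 0.0497). Zap70 was 0.392 to 0.431 of Lck with anti-CD3 alone, 0.382 to 0.441 for FK506 and 0.393 to 0.465 for the combination, which overlap, and 0.448 to 0.507 for *L. acidophilus*, which was above the anti-CD3 range.

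Set against Cd3e, the kinases and the adaptor were lower in every treated group. These ratios were chosen after the levels had been seen and carry no test. Lck to Cd3e was 1.37 to 2.27 with anti-CD3 alone, 1.00 to 1.11 after adding *L. acidophilus*, 0.927 to 1.11 for FK506 and 0.766 to 0.894 for the combination. Lat to Cd3e was 1.34 to 2.40, 1.11 to 1.19, 1.03 to 1.20 and 0.619 to 0.779 in the same order. Zap70 to Cd3e was 0.550 to 0.889, 0.463 to 0.527, 0.409 to 0.449 and 0.352 to 0.365. The combination had the lowest range of the 4 groups in each of the 3 ratios, with no overlap. Cd4 to Cd3e was also lower in every treated group, with 0.921 to 1.02 for anti-CD3 alone, 0.737 to 0.763, 0.705 to 0.832 and 0.825 to 0.835, but the combination was not the lowest. The FPKM range of Cd3e, the denominator, lay above that of anti-CD3 alone in every treated group.

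**Figure D3:**
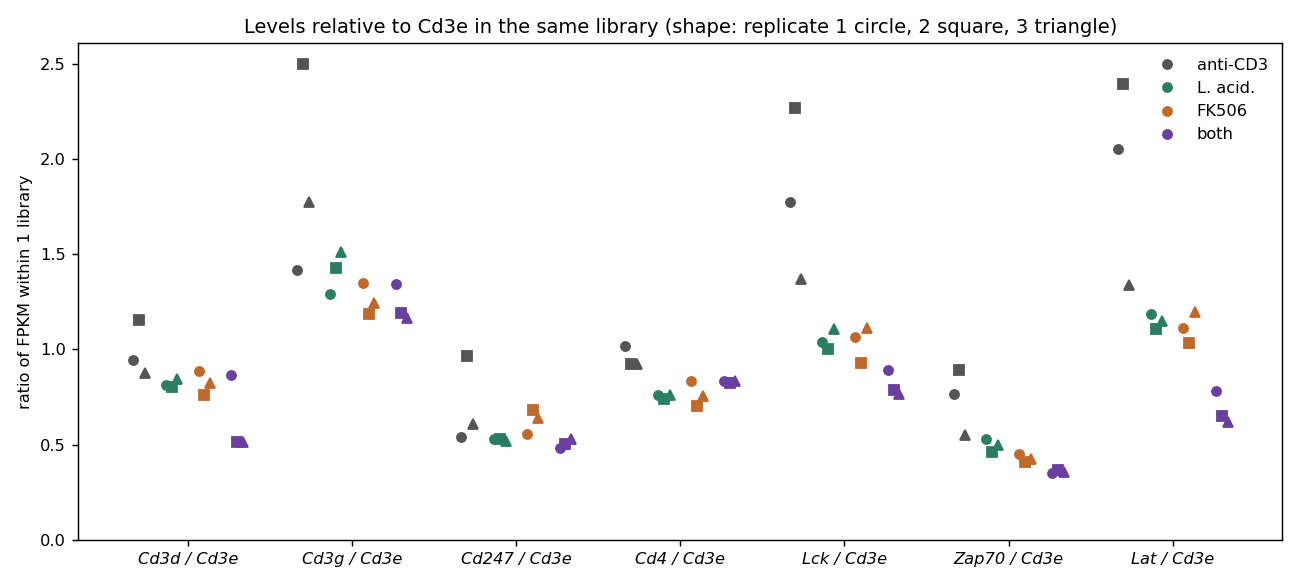
FPKM of 7 of the genes divided by that of Cd3e in the same library, for the 4 groups, with each point a library and shapes for replicates 1 to 3. The points of Lck, Zap70 and Lat are highest with anti-CD3 alone and lowest with the combination, where Lat to Cd3e is 0.619 to 0.779.

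Cd8a, the chain that CD8 beta needs to reach the surface, was near the bottom of the scale. With anti-CD3 alone it was at 0.103, 0.282 and 0.260 FPKM (24, 51 and 51 counts), and with *L. acidophilus* at 0.184, 0.196 and 0.0993 (42, 37 and 18 counts). With FK506 it was at 2.18, 0.868 and 0.641 FPKM (492, 144 and 112 counts), and with the combination at 0.534, 0.235 and 0.195 (121, 39 and 34 counts). The FK506 libraries were above all 9 others, and replicate 1 was the highest within FK506 and within the combination.

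The log2 difference of Cd8a between FK506 and anti-CD3 was 2.38 ± 0.56 (SE, adjusted p = 0.0123), and 1.69 (adjusted p = 0.0559) without FK506 replicate 1. The combination was lower than FK506 by a log2 difference of -1.98 ± 0.55 (adjusted p = 0.0269). That call was lost without FK506 replicate 1 (-1.29, adjusted p = 0.121), without combination replicate 2 (-1.79, adjusted p = 0.0983) and without combination replicate 3 (-1.71, adjusted p = 0.0987). The combination and anti-CD3 were not distinguished (0.41 ± 0.56, adjusted p = 0.593).

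Cd8b1, the CD8 beta chain, did not share the calls of Cd8a between groups. Replicate 1 was the highest for both genes within FK506 and within the combination. It was at 2.10, 4.60 and 4.88 FPKM with anti-CD3 alone, 3.16, 6.09 and 5.67 with *L. acidophilus*, 6.85, 4.37 and 3.99 with FK506, and 4.48, 4.14 and 4.14 with the combination. The groups overlapped and no comparison passed, with a log2 difference of -0.05 ± 0.32 for the combination against anti-CD3 (adjusted p = 0.920). With replicates 2 and 3 alone Cd8b1 passed as lower in that comparison (-0.40, adjusted p = 0.0487). Per length, Cd8b1 was 16.3 to 20.4 times Cd8a with anti-CD3 alone, 17.2 to 57.1 times with *L. acidophilus*, 8.39 to 21.3 times with the combination and 3.14 to 6.22 times with FK506. The FK506 range was below the other 3.

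Other cell markers moved with Cd8a, and their part was not tested. Of the 12 B cell markers 11 were higher and 0 lower with FK506 than with anti-CD3, and FK506 replicate 1 had both the highest Cd8a and the highest B cell sum (1751 FPKM). Between the combination and FK506, 0 of the 12 were higher and 8 lower. Of 6 tested markers of CD8a+ dendritic cells 3 were higher and 1 lower with FK506. The higher ones were Irf8 (1.42, adjusted p = 0.00167), a factor that B cells also express, Itgax (1.95, adjusted p = 0.00148) and Flt3 (2.19, adjusted p = 0.0109), and the lower one was Batf3 (-3.66, adjusted p = 0.000397). Clec9a was listed at 0 in all 3 FK506 libraries, and Xcr1 reached at most 0.0699 FPKM and did not pass. Markers of CD8 and NK cytotoxic cells split, with 4 of 11 higher and 4 lower. The higher ones were Eomes, Klrc1, Klrd1 and Klrb1c, of which Klrc1 was at 0.0283 to 0.141 FPKM with anti-CD3 and 0.338 to 0.780 with FK506. The lower ones were Nkg7, Prf1, Ccl5 and Crtam, and Nkg7, a granule protein of such cells, was at 96.6 to 132 FPKM with anti-CD3 and 7.75 to 19.1 with FK506. The summed level of the list, of which Nkg7 was the largest part with anti-CD3, was 137 to 185 FPKM there and 23.5 to 42.7 with FK506.

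**Figure D4:**
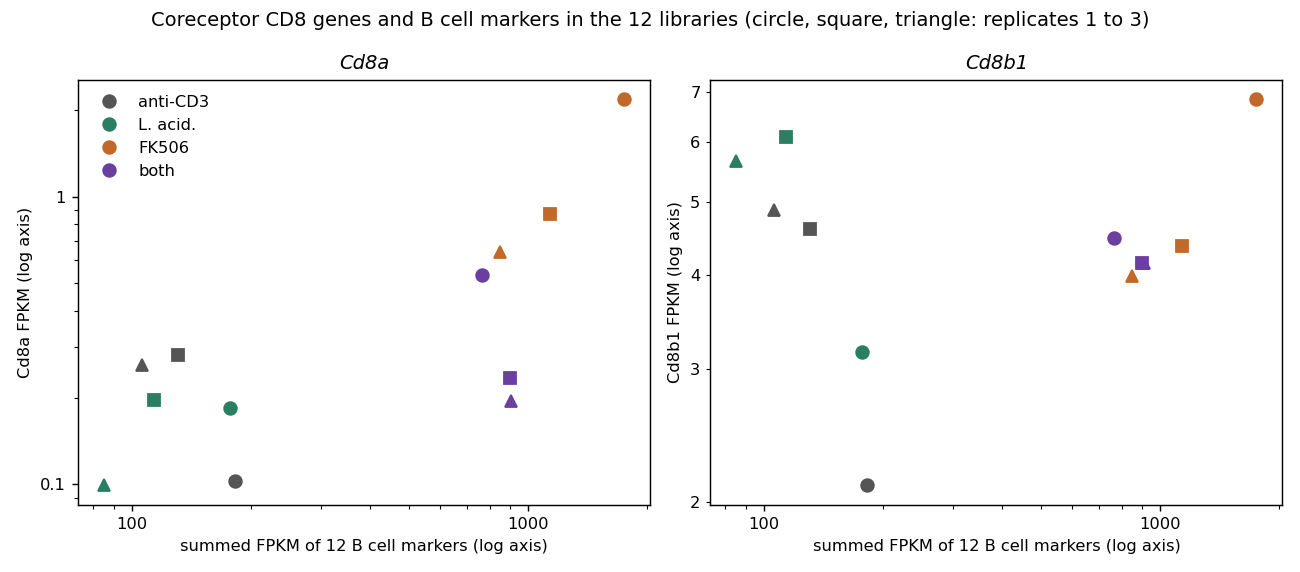
Cd8a (left) and Cd8b1 (right) in FPKM against the summed FPKM of 12 B cell markers in the same library, for the 12 libraries of the 4 groups, all axes logarithmic. FK506 replicate 1 is highest for both genes and for the marker sum (2.18, 6.85 and 1751). Combination replicates 2 and 3 have a sum of 900 and 908, of which Ighm makes 725 and 732, and Cd8a at 0.235 and 0.195.

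With *L. acidophilus* alone, no member passed against anti-CD3 in edgeR, where 0.229% of all genes tested were called (0.178% higher and 0.0509% lower, and 0.187% at 2-fold). At an unadjusted p under 0.05 there were 2 of 10, beside 3489 of all 23585 genes. These were Cd3e with a log2 difference of 0.34 ± 0.10 (adjusted p = 0.158) and Lck with -0.45 ± 0.17 (adjusted p = 0.261). DESeq2, which called 1121 of all 23585 genes, called 1 member, Cd3e (adjusted p = 0.0281), and the limma fits called 0. The 3 Cd3e levels (184 to 220 FPKM) lay above the 3 of anti-CD3 alone (136 to 162). Lat differed by -0.41 (adjusted p = 0.356) and Cd8a by -0.50 (adjusted p = 0.740).

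Adding *L. acidophilus* to FK506 changed 3 of the 10 genes, against 19.1% of all genes tested (8.18% higher and 10.9% lower). Of these only Cd8a changed by at least 2-fold, which 7.44% of all genes did. Cd3e and Cd4 were higher and Cd8a lower, as given above, and the median log2 difference was 0.25, beside 0.03 over all genes. Adding FK506 to *L. acidophilus* changed 2 of 10, Cd3e and Cd4, both higher, against 33.6% of all genes (16.6% higher and 17.0% lower), and neither by 2-fold (16.6% of all genes). Cd247 was at 0.36 in that comparison (adjusted p = 0.166) and Cd8a at 0.90 (adjusted p = 0.247), the latter 0.29 without combination replicate 1. These comparisons share libraries with each other and with those against anti-CD3 alone.

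Whether the combination exceeded the 2 single effects added together was asked as the difference between the effect of *L. acidophilus* with FK506 and without it. Of the 10 genes 1 passed, Cd4, with a log2 difference of 0.67 ± 0.14 (SE, adjusted p = 0.0219), against 4.35% of all genes tested (1.35% higher, 3.0% lower, and 2.37% at 2-fold in either direction). The estimate stayed at 0.61 to 0.75 without each library in turn, and the call was lost without *L. acidophilus* replicate 2 (adjusted p = 0.0713) or 3 (adjusted p = 0.0686), FK506 replicate 3 (adjusted p = 0.0647) or combination replicate 2 (adjusted p = 0.0514). Lck (0.67, adjusted p = 0.152), Cd3g (0.64, adjusted p = 0.232) and Zap70 (0.53, adjusted p = 0.225) had estimates of like size with larger errors. For Cd3e the estimate was 0.21 (adjusted p = 0.472), and for Cd8a -1.48 (adjusted p = 0.334).

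The counts of the lists that follow stand beside the shares of all genes given above, 21.5% higher and 21.8% lower with the combination and 10.2% and 8.81% with FK506. The antigen-binding chains themselves were examined through 7 constant genes. With the combination 5 were higher than with anti-CD3 and 0 lower, and their median log2 difference was 0.98, beside 0.02 over all genes. Trac, the alpha constant gene, was at 178 to 266 FPKM with anti-CD3, as against 400 to 509 in the combination libraries (log2 difference 0.70, adjusted p = 0.00341), and with FK506 it did not pass (0.15, adjusted p = 0.559). The beta constant genes Trbc1 (0.08, adjusted p = 0.688) and Trbc2 (0.18, adjusted p = 0.497) did not pass, and these near-identical copies may share reads. The other 4 encode gamma-delta receptor chains at low levels. Tcrg-C1, Tcrg-C2 and Tcrg-C4 were each at most 1.25 FPKM with anti-CD3, as against 1.59 to 4.09 in the combination libraries, and Trdc went from 1.57 to 2.18 FPKM to 3.23 to 6.51. Their log2 differences were 2.86, 2.23, 3.69 and 0.98, and with FK506 alone 2.83, 2.51, 3.43 and 1.41.

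Of 5 other proximal kinases, 2 were higher and 2 lower with the combination, and 1 higher with FK506. Fyn, the second Src-family kinase of the receptor, was at 38.7 to 53.4 FPKM with anti-CD3, as against 87.6 to 89.2 in the combination libraries (log2 difference 0.82, adjusted p = 0.000199). Txk, a kinase of the Tec family, was at 0.268 to 0.608 FPKM with anti-CD3, as against 10.0 to 16.8 in the combination libraries (4.52, adjusted p = 2.75e-05), and Txk was also higher with FK506 (3.50, adjusted p = 0.000527). Csk, which inactivates Lck, was lower (-0.31, adjusted p = 0.0444), a call lost under 17 of 23 alternatives, and 0.16 after quantile normalization.

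Of 18 adaptors and effectors, 8 were higher and 2 lower with the combination, and 5 higher and 3 lower with FK506. The membrane adaptor Lax1, a relative of Lat that restrains the receptor, was at 4.99 to 7.64 FPKM with anti-CD3, 15.1 to 28.9 with FK506 and 19.9 to 21.6 with the combination (1.89 against anti-CD3, adjusted p = 1.47e-05). Fyb, which links the receptor to integrins, rose by 1.36, and Pag1, which recruits Csk, by 1.31. Trat1, an adaptor that stabilises the receptor at the surface, rose more with FK506 (2.58, adjusted p = 0.000618) than with the combination (1.31, adjusted p = 0.00758), and the combination was lower than FK506 (-1.27, adjusted p = 0.0200). Of the surface molecules Cd2, Cd5 and Cd6, all abundant, Cd2 was lower with the combination (-0.75) and all 3 were lower with FK506 (-0.90, -0.66 and -0.53). The Cd2 call with the combination was lost under 7 of 23 alternatives, and the Cd5 call with FK506 under 6.

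Of 11 regulators of the receptor signal, mostly phosphatases, ubiquitin ligases and lipid kinases that restrain it, 3 were higher and 1 lower with the combination, and 0 higher and 2 lower with FK506. The diacylglycerol kinases Dgka and Dgkz, which remove the lipid that opens the Ras arm, stood at 81.9 to 123 and 53.4 to 62.4 FPKM with anti-CD3 and at 236 to 240 and 111 to 136 with the combination. Their log2 differences were 1.09 (adjusted p = 0.000208) and 1.14 (adjusted p = 0.000142), and Ubash3b, a phosphatase that acts on Zap70, rose by 1.11 (adjusted p = 0.000147). Dgkz (1.02, adjusted p = 0.0258) and Ubash3b (1.27, adjusted p = 0.0112) also exceeded the sum of the single effects, the Dgkz call being lost under 5 of 22 alternatives. Ptpn6, which dephosphorylates Lck and Zap70, was lower with the combination (-0.50, adjusted p = 0.00121), and at -0.0047 after quantile normalization did not pass. Ptprc, a phosphatase that activates Lck, did not pass (0.33, adjusted p = 0.0682).

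Of 6 genes below Lat in the PKC-theta and Ras arms, 3 were higher and 1 lower with the combination, and 2 higher and 1 lower with FK506. Malt1, a protease on the way to NF-kB, was lower, at 73.0 to 114 FPKM with anti-CD3, as against 53.0 to 73.2 in the combination libraries (-0.79, adjusted p = 0.00327), a call lost after quantile normalization and with replicates 2 and 3 alone. Carmil2, which acts in costimulation, rose by 0.68, and Bcl10 by 0.25 (adjusted p = 0.0419), a call lost under 13 of the 23 alternatives. With *L. acidophilus* alone 0 genes of any of these 5 lists passed in edgeR. In limma on quantile-normalized FPKM, which differs from edgeR in test, measure and scaling, 0 genes were lower with the combination in the kinases (2 higher), the adaptors (9 higher), the regulators (6 higher) and these downstream arms (3 higher). With FK506 that fit had 1 lower in the adaptors and 0 in the regulators and the downstream arms.

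**Figure D5:**
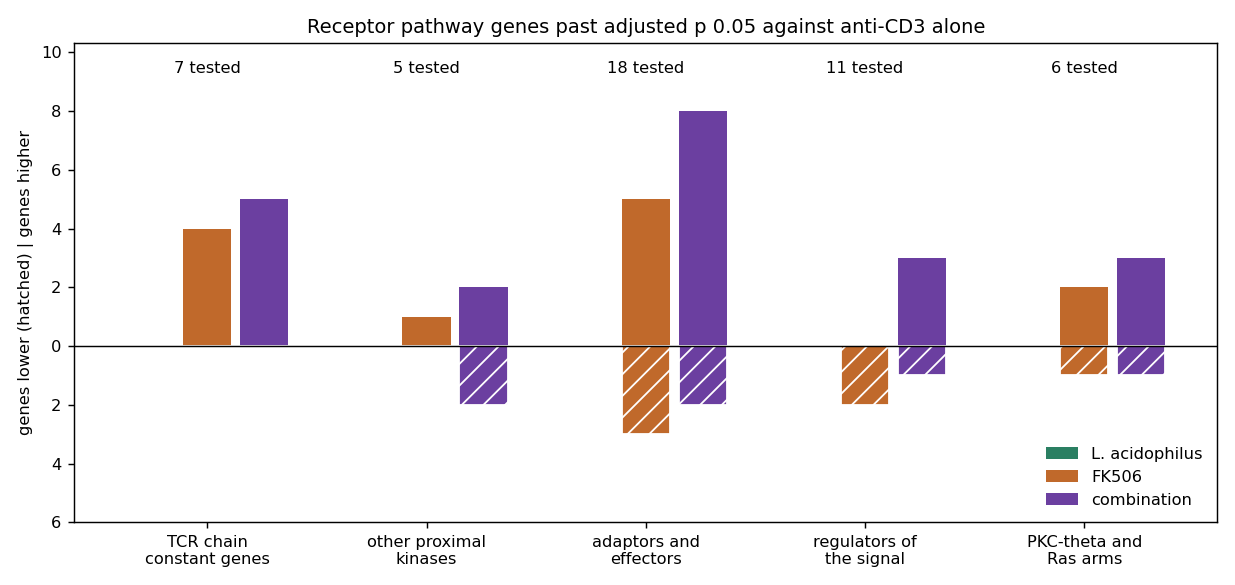
Number of genes of 5 receptor lists that passed at an adjusted p under 0.05 against anti-CD3 alone, higher above the line and lower below it (hatched), for *L. acidophilus*, FK506 and the combination, with the number tested above. No bar stands for *L. acidophilus*, and the combination has 8 higher and 2 lower among 18 adaptors and effectors.

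The factors that set the CD4 or CD8 lineage were divided, with 3 of 9 higher and 3 lower with the combination. The 3 lower were Gata3, Satb1 and Runx3. With FK506 3 were higher and 3 lower, the latter Gata3, Runx3 and Zbtb7b, and Satb1 did not pass (-0.17, adjusted p = 0.473). Gata3, which supports the CD4 lineage, was at 74.8 to 88.5 FPKM with anti-CD3, as against 29.4 to 31.5 in the combination libraries (-1.63, adjusted p = 8.18e-06). Satb1 was at 134 to 196 and 69.1 to 77.2 FPKM (-1.36, adjusted p = 4.93e-05). Runx3, the CD8 lineage factor that silences Cd4, was at 31.6 to 51.9 and 20.3 to 22.5 FPKM (-1.15, adjusted p = 0.000312). Tcf7 rose by 1.77 and Tox by 2.39. Zbtb7b, the main factor of the CD4 lineage, did not pass with the combination (-0.24, adjusted p = 0.193) and was lower with FK506 (-0.55, adjusted p = 0.0187). Runx3 and Zbtb7b were chosen after their values were seen.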

How the data were processed

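RNA of 12 libraries of mouse splenic CD4+ T cells was analysed, 3 for each of 4 groups taken from the labels. The authors deposited 1 table of 45777 genes. Its read counts are whole numbers per gene, deposited without normalization. Its FPKM values were deposited by the authors as fragments scaled by transcript length and library depth, and the quantile normalization that the study's methods name is not visible in them, since library totals differ. The submitters' processing notes name bcl2fastq 2.20.0, Trimmomatic, HISAT2 2.1.0 and StringTie 2.1.3b with mouse build GRCm38, and strand is not given in the sources used here. The 12 columns of TPM were not used. No 2 libraries of a group agreed within sampling noise, by chi-square per degree of freedom, but some pairs were far closer than others. Combination replicates 2 and 3 were at 4.61, beside 78.7 and 86.8 for their pairs with replicate 1. For *L. acidophilus* replicates 2 and 3 were at 9.57, beside 60.2 and 59.5. Pairs of anti-CD3 libraries were at 100 to 205 and those of FK506 at 47.7 to 62.5.

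The 23585 genes detected in 3 or more libraries were tested on counts with edgeR 4.0.16 (R 4.3.3), TMM factors, 1 mean per group and all 12 libraries, with Benjamini-Hochberg adjustment. Standard errors come from the fold change and its F statistic. Alternatives were other scalings and filters, DESeq2 1.42.0, limma 3.58.1 on log2(FPKM + 1 or 0.1), as deposited or (with 1) quantile-normalized, the replicate number as a block, the 6 libraries compared, and each library left out. Replicates 2 and 3 alone was added after seeing the data. The fits were tested on simulated data. Motifs were searched in RefSeq windows. Figures used matplotlib 3.10.9 in Python 3.11.15.

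The genes, the lists and the tests were chosen with earlier results of these data known. Of each list, the text names up to 3 genes of highest mean FPKM and up to 4 with the largest passing change with the combination. Some genes that this rule selects are not reported here, and Clec9a, Xcr1, S100a8, Pax5, Itgax, Eomes, Klrc1 and Prf1 were named outside it, after their values were seen. For Cd4, Cd3e and Cd8a it names the 3 genes nearest in pattern among those with a mean of at least 5 FPKM.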

Additional observations from a re-analysis of the deposited data

Results flagged for a closer look

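The effect of *L. acidophilus* on Cd4 differed with and without FK506, by 0.67 ± 0.14 on the log2 scale (SE, adjusted p = 0.0219, edgeR), by the test of that difference itself. The call was lost under 5 of 22 alternatives, with adjusted p up to 0.0713, and the direction was kept in all 22. Without FK506 the Cd4 level was 139 to 149 FPKM with anti-CD3 and 141 to 168 with *L. acidophilus*, which overlap. With FK506 it was 131 to 154 FPKM without *L. acidophilus* and 237 to 256 with it, which do not overlap. All 3 combination libraries were above all 9 others.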

How the results depend on the processing

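The calls of Cd3e and Cd4 with the combination against each of the other 3 groups kept their direction and their side of the threshold under all 23 alternatives. Of the 12 called values among the 38 reported, 0 changed direction, and 6 were lost under some alternative. Over 868 pairs of value and alternative, 789 kept their call and direction, 29 lost the call, 33 gained one and 17 changed direction. For the combination against anti-CD3, the count of 3 became 5 in limma on quantile-normalized FPKM (called quantile normalization here) and 0 at 2-fold, and 3 to 5 with each library left out. For FK506 against anti-CD3 the count of 3 became 1 with either limma pseudocount, with the 6 libraries alone and at 2-fold, and 0 to 4 with each library left out. For *L. acidophilus* the count of 0 became 1 with DESeq2. For the combination against FK506 the count of 3 became 6 with quantile normalization, 5 with the 6 libraries alone and 1 at 2-fold, and 2 to 5 with each library left out. Against *L. acidophilus* the count of 2 became 5 and 0 under quantile normalization and at 2-fold. For the excess over the sum, the count of 1 became 2 with DESeq2 and with quantile normalization, 0 with replicates 2 and 3 alone, and 0 to 1 with each library left out. The causes were not tested.

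Values that changed direction were all uncalled. With the combination against anti-CD3, quantile normalization gave Cd8a -0.021, Lck 0.081 and Zap70 0.25. Replicates 2 and 3 alone gave Cd3d -0.31, Cd3g -0.20 and Cd8a -0.54. Cd8b1 was 0.15 without scaling factors and 0.17 and 0.23 in limma with pseudocounts of 1 and 0.1. With each library left out the ranges were -0.24 to 0.31 for Cd3d, -0.081 to 0.43 for Cd3g, -0.21 to 0.68 for Cd8a and -0.34 to 0.12 for Cd8b1. Cd4 with FK506 was 0.0015 in limma with either pseudocount and 0.15 after quantile normalization. Without scaling factors the median of all genes with the combination moved from 0.023 to 0.228. The counts below 500 of Cd8a limit its precision.

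The replicate numbers were not taken to pair the libraries across the 4 groups, since not every same-numbered pair had a correlation of deviations over 0.1. Of 18 pairs 12 did (lowest -0.123, highest 0.512, mean 0.210, beside -0.102 for other numbers, over 12221 genes), and all 3 did for *L. acidophilus* with anti-CD3 and with the combination. The pairs of replicate 1 were all positive, at 0.0911 to 0.512. Replicate 1 was also the deepest library of every group, with 63113961 to 64658165 counts, as against 45416397 to 54245588 in replicates 2 and 3. A shared batch of the replicate 1 libraries was not tested. With the replicate block the calls of members were the same in all 6 comparisons, with 3 for the combination against anti-CD3, and Cd4 at 0.56 and Cd8a with FK506 at 2.15.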

Other observations

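The pattern of Cd4 over the 12 libraries was most closely matched by Scarb2, a lysosomal membrane protein, Tnip1, a partner of the NF-kB inhibitor A20, and Acot9, an acyl-CoA thioesterase. Likeness was measured as the root mean square difference of log2 TMM-scaled CPM, each gene centred on its mean, among 8732 genes. It was 0.0732, 0.0775 and 0.0937 for these 3, beside a spread of Cd4 itself of 0.275. Scarb2 was at 9.40 to 11.1 FPKM with anti-CD3 alone and at 17.3 to 20.5 with the combination. Tnip1 was at 39.0 to 43.3 and 63.1 to 66.6 FPKM.

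The pattern of Cd3e was nearest to Gpbp1l1 (0.0751), the ubiquitin ligase Rchy1 (0.0891) and the T-cell adaptor Sh2d2a (0.0915), beside its own spread of 0.293. Sh2d2a was also in the list of adaptors and stood at 38.2 to 62.6 FPKM with anti-CD3 alone and 84.2 to 95.2 with the combination. For Cd8a the nearest were Trat1 (0.586), the immunoglobulin light chain segment Igkv3-12 (0.596) and the lysosomal reductase Ifi30 (0.604), distances that are large beside those of the other 2 genes, with an own spread of 1.19. Igkv3-12 was at 9.44 to 43.5 FPKM with FK506 and 4.42 to 7.18 with the combination. These are nearest neighbours among many genes measured in the same libraries, and carry no test.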
